A study of Mus musculus with 30 samples.

Results

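The genes of the elastic fibre and its microfibrils were followed across 6 cell populations sorted from mouse mammary tumours. They are 10 genes, Eln, Fbn1, Fbln1, Fbln2, Fbln5, Efemp1, Efemp2, Mfap4, Mfap5 and Emilin1, taken by symbol as elastin, a fibrillin, fibulins and microfibril proteins, and 10 of 10 were found by Entrez ID among the 14118 genes of the count matrix. The tumours are mammary adenocarcinomas of 750 mm3 from FVB/N-Tg(MMTVPyVT)634Mul/J mice, in which a mammary tumour virus promoter drives the polyoma middle T oncogene in mammary epithelium. All 6 groups come from the same 5 tumours, 1 per mouse and numbered 5, 6, 8, 10 and 11, so every group has 5 libraries, none comes from tumour-free tissue, and the mice's ages are not given in the labels. CAF1 are cancer-associated fibroblasts gated as CD45- CD31- CD90+ CD34-, and CAF2 are the CD34+ cells of the same gate. Endothelial cells are CD45- CD31+. The macrophages are CD45+ F4/80+ and fall into CD206hi (CD206+ MHCII low), CD206pos (CD206+ MHCII high) and CD206neg (CD206- MHCII low). Each library is bulk RNA of a sorted gate, amplified with a low-input full-length kit.

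Elastic fibres give tissues such as artery, lung and skin their recoil. A core of cross-linked elastin, encoded by Eln, is laid down on a scaffold of microfibrils whose backbone is fibrillin-1, the product of Fbn1. Fibulins, microfibril-associated glycoproteins and EMILIN-1 sit on or between core and scaffold, and fibulin-4 (Efemp2) and fibulin-5 (Fbln5) bring lysyl oxidases to elastin. In most organs fibroblasts and vascular smooth muscle cells make these proteins, and endothelial cells contribute some of them.

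The set divided into genes found mostly in the fibroblast gates and a few with wider use. Summed over the 10 genes, the level was 10914 ± 3997 CPM in CAF1, 18214 ± 1648 CPM in CAF2, 590.1 ± 194 CPM in endothelial cells, and 66.1 ± 14.1, 44.3 ± 15.01 and 53.3 ± 20.2 CPM in CD206hi, CD206pos and CD206neg macrophages (SD, n = 5 each). CPM are counts relative to the library total. CAF1 and CAF2 parted in Efemp1 and Fbn1, both lower in CAF1, and in Emilin1, which was higher in CAF1. Fbln5 stood at nearly the same CPM in CAF1, CAF2 and endothelial cells, Fbln2 was next to it by CPM in endothelial cells, and Emilin1 was found in every population.

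Promoters are shown for 3 genes with unlike patterns, picked among those with a promoter window. These are Efemp1, which parted the CAF groups most, and Emilin1, which parted them the other way. The last is Fbln5, at nearly the same CPM in CAF1, CAF2 and endothelial cells. Each window runs from 250 bases before to 50 after the annotated start, 5′ to 3′ on the gene's strand, from RefSeq on GRCm38.p6, the assembly that mm10 stands for. Capitals mark the E-box letters CANNTG and the GC box letters GGGCGG, on either strand.
Efemp1 (chr11:28852955-28853254, + strand): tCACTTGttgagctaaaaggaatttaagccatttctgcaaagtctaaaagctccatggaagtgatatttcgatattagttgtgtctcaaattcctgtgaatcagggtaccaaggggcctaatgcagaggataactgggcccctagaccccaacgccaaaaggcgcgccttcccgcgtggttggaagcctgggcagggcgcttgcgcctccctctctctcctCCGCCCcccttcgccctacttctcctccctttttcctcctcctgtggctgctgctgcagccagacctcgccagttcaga
Emilin1 (chr5:30913536-30913835, + strand): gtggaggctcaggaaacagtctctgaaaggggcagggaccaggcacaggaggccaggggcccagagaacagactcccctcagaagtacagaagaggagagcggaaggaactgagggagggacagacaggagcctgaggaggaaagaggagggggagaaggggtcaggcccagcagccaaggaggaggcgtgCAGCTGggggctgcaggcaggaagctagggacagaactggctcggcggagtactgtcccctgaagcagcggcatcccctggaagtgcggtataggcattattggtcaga
Fbln5 (chr12:101819070-101819369, - strand): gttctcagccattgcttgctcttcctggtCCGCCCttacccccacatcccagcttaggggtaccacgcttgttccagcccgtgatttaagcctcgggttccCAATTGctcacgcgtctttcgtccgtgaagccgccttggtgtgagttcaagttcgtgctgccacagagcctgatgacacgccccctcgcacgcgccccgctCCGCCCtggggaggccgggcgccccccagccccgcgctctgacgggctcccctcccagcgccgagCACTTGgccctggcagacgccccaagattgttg

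RefSeq promoter windows were matched for 7 of the 10 genes, taking the outermost start where several are listed. The Fbln5 window held 24 CG dinucleotides, with a ratio of observed to expected CG of 0.776. The Emilin1 window held 6, with a ratio of 0.234, and the Efemp1 window 11, with a ratio of 0.511. The median ratio over all 32851 windows was 0.384. CANNTG was found in 6 of the 7 windows and in 72.3% of all windows, and GGGCGG in 5 of 7 and 35.7%. The TATA letters TATAAA were found in 0 of 7 windows and in 13.6% of all, and the AP-1 letters TGANTCA only in that of Efemp1 and in 7.81% of all. All letters were searched on both strands, and a match describes the window without showing that it is used. The Emilin1 window lies inside the annotated span of the gene.

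Total counts ran from 6292411 to 11957076 per library, so that a gene with no count may lie at up to 0.251 to 0.477 CPM (the 95% limit of 3 counts, counting error only). The gates held the marker genes of their cell type: 7 fibroblast markers summed to 23896 to 105649 CPM in CAF1, 29987 to 43160 CPM in CAF2 and 51.8 to 653 CPM in endothelial libraries, and to at most 80.0 CPM in any macrophage library. The sum of 7 endothelial markers came to 2726 to 6300 CPM in endothelial libraries, and that of 6 macrophage markers to 23060 to 41353 CPM over the macrophage libraries. Markers of other cell types showed too, with the highest sums in the CAF1 and endothelial gates. Which cells this RNA came from cannot be told from bulk sums. Markers of pericytes and smooth muscle, 11 in number, summed to 749 to 3308 CPM in CAF1, 157 to 263 CPM in CAF2 and 867 to 2598 CPM in endothelial libraries. Luminal epithelial markers, 6 in number, summed to 199 to 1621 CPM in CAF1, 1.60 to 417 CPM in CAF2 and 194 to 2262 CPM in endothelial libraries. Over the macrophage libraries that sum ran from 22.8 to 506 CPM and was highest in tumour 6 in each group. For CD206neg, the matrix headers of tumours 6 and 8 say MHCII high; these 2 libraries were grouped by their labels, which say low.

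**Figure D1:**
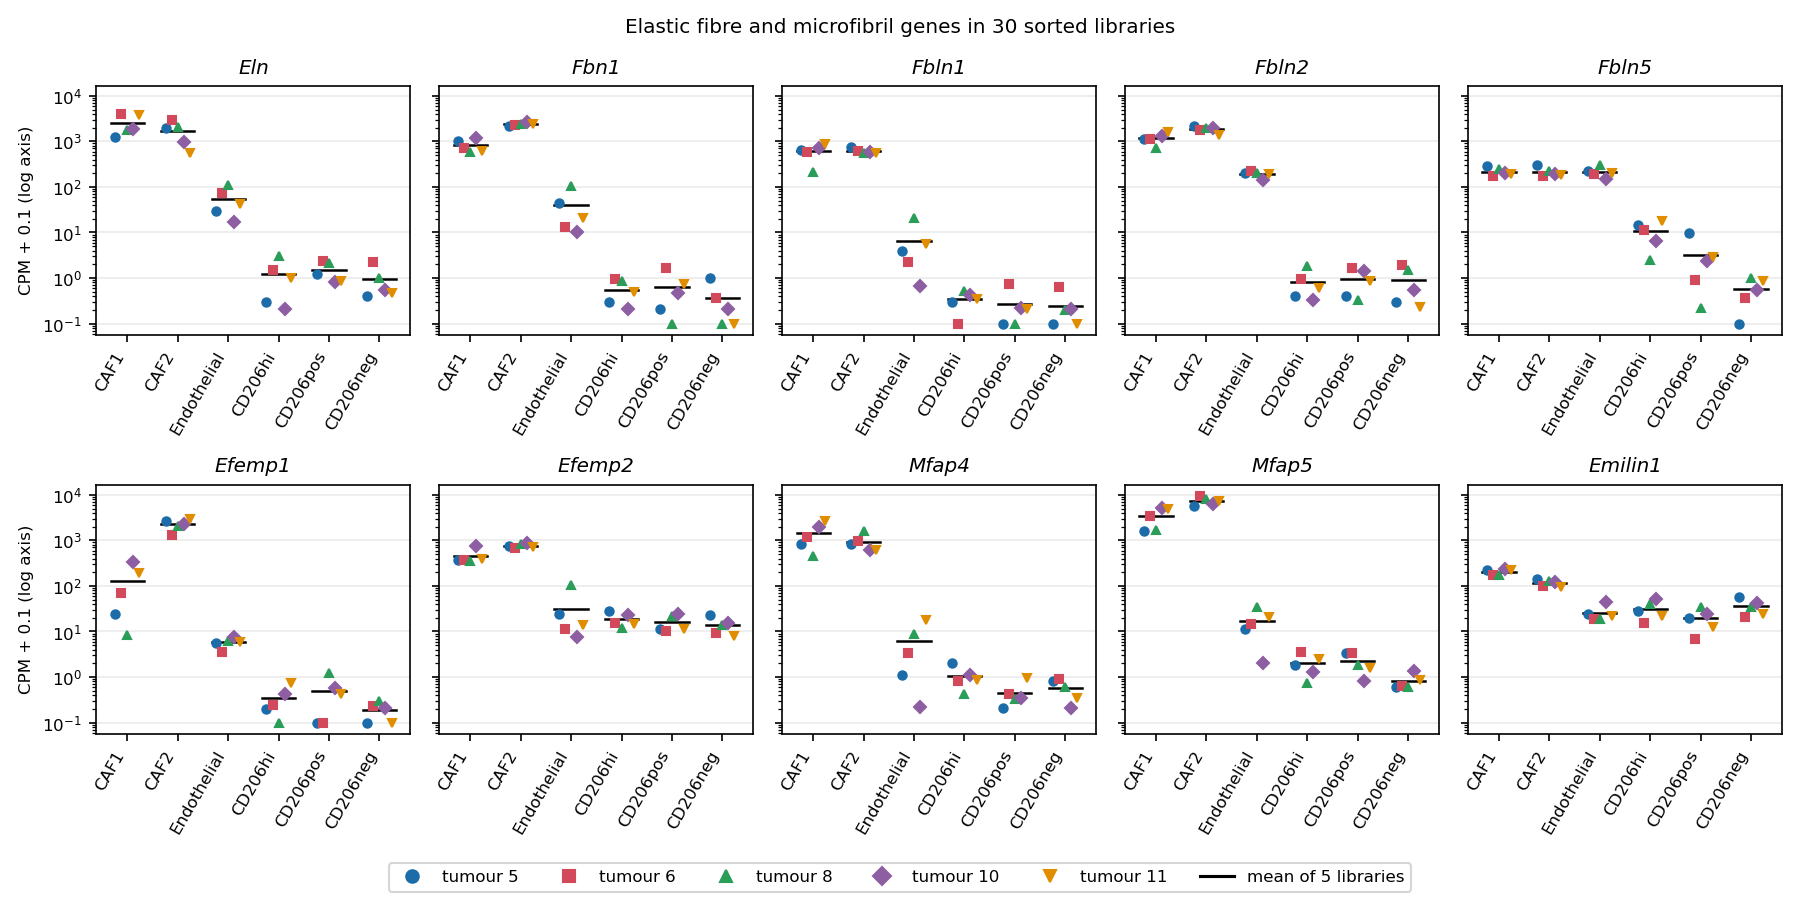
Level of each gene in the 30 libraries, as CPM + 0.1 on a log axis, by population. Points are libraries marked by tumour and bars are means of 5 libraries; Fbln5 lies near 200 CPM in CAF1, CAF2 and endothelial cells, and Emilin1 is at 6.67 CPM or more in every library.

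Elastin RNA was far higher in the CAF gates than in the others. Eln (Entrez gene 13717, chromosome 5, 134702595 to 134747368 in mm10) stood at 1219.9, 3967, 1755, 1892 and 3729 CPM in CAF1 of tumours 5, 6, 8, 10 and 11, against 1955, 2977, 2059, 959 and 559.6 CPM in CAF2 of the same tumours. The groups overlap: CAF1 was below CAF2 in tumours 5 and 8 and above it in the others, 6.66-fold in tumour 11. The log2 fold change of CAF1 over CAF2 was 0.81 ± 0.55 (SE) and did not pass (edgeR quasi-likelihood adjusted p = 0.366). Endothelial libraries held 17.0 to 113 CPM of Eln. In macrophages it lay between 0.111 and 2.91 CPM, near the limit of detection.

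Fibrillin-1, the backbone of the microfibril, was lower in CAF1. Fbn1 (Entrez gene 14118, chromosome 2, 125300594 to 125506485) stood at 1036, 729.8, 574, 1197 and 625 CPM in CAF1 and at 2232, 2246, 2374, 2729 and 2463 CPM in CAF2, in the same order of tumours. Every CAF1 library lay below every CAF2 library. The log2 fold change was -1.43 ± 0.26, a 2.70-fold lower level (edgeR adjusted p = 0.00191), lower in 5 of 5 tumours. With all 30 libraries in 1 fit, which shares the spread of all groups, the adjusted p was 0.0605. Endothelial libraries held 10.04 to 106 CPM of Fbn1, and macrophage libraries at most 1.59 CPM.

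Among the fibulins, fibulin-3 gave the largest contrast of the set. Efemp1 encodes fibulin-3, a secreted glycoprotein of basement membranes and elastic tissue (Entrez gene 216616, chromosome 11, 28853154 to 28926743). CAF1 libraries held 24.5, 69.8, 8.39, 339.8 and 193 CPM in tumours 5, 6, 8, 10 and 11, and CAF2 libraries 2688, 1326, 2048, 2247 and 3023 CPM. The groups do not overlap, and relative to its mean CAF1 varied more between tumours (127 ± 139 CPM, SD, n = 5) than CAF2 (2266 ± 648 CPM). The log2 fold change was -3.84 ± 0.87 (edgeR adjusted p = 0.00768), a 14.3-fold lower level, lower in 5 of 5 tumours. Within tumours the CAF1 level was 0.00409 of the CAF2 level in tumour 8 and 0.151 of it in tumour 10. Endothelial libraries held 3.37 to 7.62 CPM of Efemp1.

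Fibulin-1 and fibulin-2 showed no called difference between the CAF groups. Fbln1, which encodes a fibulin of microfibrils and basement membranes, averaged 609 ± 249 CPM over CAF1 libraries and 605 ± 81.0 CPM over those of CAF2 (SD, n = 5; log2 0.24 ± 0.38, edgeR adjusted p = 0.735), and its sign turned with tumour as a block (-0.011). Fbln2, a fibulin that binds fibrillin-1 and tropoelastin, stood at 1122, 1104, 724, 1281 and 1615 CPM in CAF1, against 2175, 1783, 1971, 1929 and 1396 CPM in CAF2. CAF1 was the lower in 4 of 5 tumours, tumour 11 being the exception. The log2 fold change was -0.44 ± 0.33 (adjusted p = 0.417), and without the CAF1 library of tumour 11 it was -0.80 with an adjusted p of 0.0467.

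Fibulin-4 and fibulin-5, both needed for elastic fibre assembly in mice, had unlike patterns. Efemp2, encoding fibulin-4, held 377, 368, 347, 742 and 387 CPM in CAF1 and 742, 678, 819.5, 876 and 723 CPM in CAF2. CAF1 was lower in 5 of 5 tumours, with tumour 10 well above the other CAF1 libraries. The log2 fold change of -0.63 ± 0.28 did not pass (edgeR adjusted p = 0.135), whereas it passed without the CAF1 library of tumour 10 (0.0285) and with library totals in place of TMM factors (0.0314). Fbln5 held 283, 171, 247, 199 and 189.9 CPM in CAF1, 303, 171, 227, 188 and 182 CPM in CAF2, and 219, 188, 299, 149 and 200 CPM in endothelial cells. The 3 groups overlap fully. The CAF1 over CAF2 ratio within a tumour lay between 0.933 and 1.09, the narrowest of the 10 genes (SD of the log2 ratio 0.0865), and the log2 fold change was 0.15 ± 0.17 (adjusted p = 0.632).

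Of the microfibril-associated proteins, Mfap5 had the highest mean of the 10 genes in CAF1 and in CAF2, by CPM and per length. Mfap5 encodes MAGP-2, a small glycoprotein that binds fibrillins (Entrez gene 50530, chromosome 6, 122513584 to 122529290). It held 1606, 3470, 1722, 5079 and 4990 CPM in CAF1 and 5664, 9292, 8043, 6453 and 7320 CPM in CAF2. Each CAF1 library lay below each CAF2 library by CPM, but the log2 fold change of -0.88 ± 0.49 did not pass (edgeR adjusted p = 0.251). Scaled by library totals alone the log2 fold change was -1.12 and passed (0.0248). TMM factors in the fibroblast fit ran from 0.648 to 1.39 in CAF1 and from 0.898 to 1.19 in CAF2, so the levels tested differ from the CPM printed. Mfap4, a fibrinogen-domain protein that binds elastin and fibrillin microfibrils, held 841, 1183, 456, 1971 and 2654 CPM in CAF1 and 836, 954, 1616, 624 and 607 CPM in CAF2. Tumour 8 ran against the other tumours, with the lowest CAF1 and the highest CAF2 value. Its log2 fold change was 0.92 ± 0.55 (adjusted p = 0.286).

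Emilin1 was the gene called higher in CAF1. It encodes EMILIN-1, a glycoprotein at the interface of elastin and microfibrils (Entrez gene 100952, chromosome 5, 30913387 to 30921279). CAF1 libraries held 225, 178, 174, 233 and 225 CPM and CAF2 libraries 143, 100.3, 127, 120.3 and 93.9 CPM. The ranges do not overlap, and within tumours CAF1 was 1.37 to 2.39 times CAF2. The log2 fold change was 0.99 ± 0.21 (edgeR adjusted p = 0.00518), higher in 5 of 5 tumours.

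**Figure D2:**
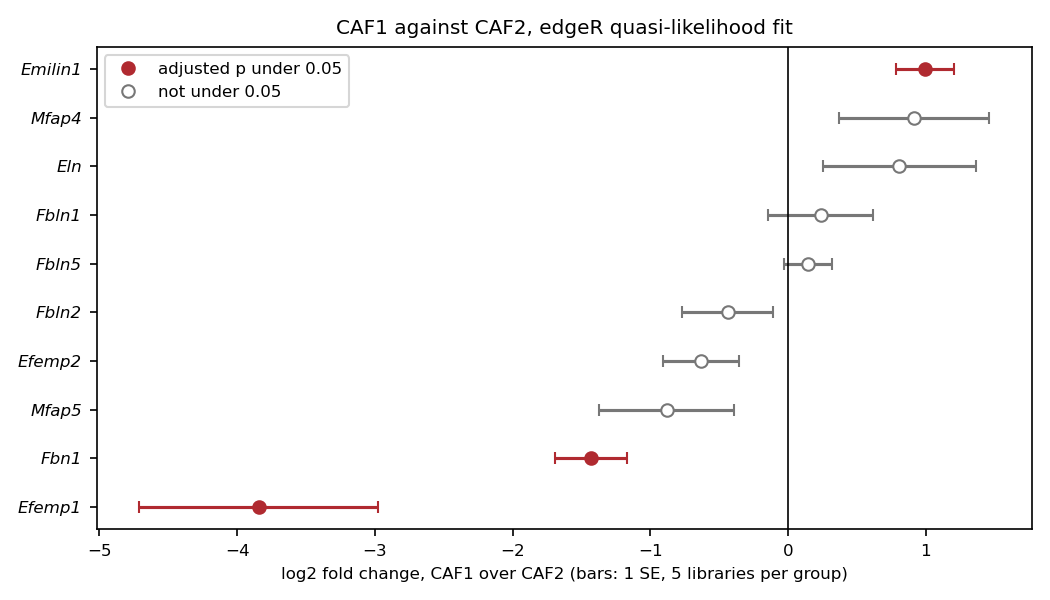
Log2 fold change of CAF1 over CAF2 for each gene, with bars of 1 SE (5 libraries per group). Filled points passed an adjusted p of 0.05: Emilin1 at 0.99, Fbn1 at -1.43 and Efemp1 at -3.84.

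In all, 1 gene of the 10 was higher and 2 were lower in CAF1, where edgeR called 10.9% of the 12149 genes tested higher and 8.59% lower (19.5% either way). The median log2 fold change was -0.15 over the 10 genes and 0.01 over all genes tested. These 3 calls held when each library or each tumour was left out, with Fbln2 or Efemp2 joining the lower genes in the cases given. Bulk libraries do not tell fewer cells of a type from less RNA per cell.

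The CAF1 libraries of tumours 10 and 11 stood apart from those of tumours 5 and 8 in the set and in markers of other cells. Pericyte and smooth muscle markers summed to 3308, 2345, 3097, 918 and 749 CPM in CAF1 of tumours 5, 6, 8, 10 and 11. Luminal markers summed to 1621, 1532, 677, 199 and 368 CPM in the same libraries, and 4 myoepithelial markers to 4086, 485, 621, 84.0 and 121 CPM. The fibroblast markers summed to 23896, 55908, 32439, 42515 and 105649 CPM in these libraries. CAF1 libraries 10 and 11 thus had the lowest pericyte, luminal and myoepithelial sums and the highest Efemp1, Mfap4, Mfap5, Fbln1, Fbln2 and Efemp2. Libraries 5 and 8 had the lowest levels of Efemp1, Mfap4 and Mfap5 among these 6 genes. For Eln, Fbn1, Fbln5 and Emilin1, libraries 10 and 11 were not both above the rest. Fbln5 was highest in libraries 5 and 8, at 283 and 247 CPM. In CAF2 the pericyte sums ran from 157 to 263 CPM and the myoepithelial sums from 0.0836 to 8.99 CPM. All 11 pericyte markers exceeded 3 counts in at least 1 library of each CAF group, and their part in the differences between CAF1 and CAF2 was not tested.

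**Figure D3:**
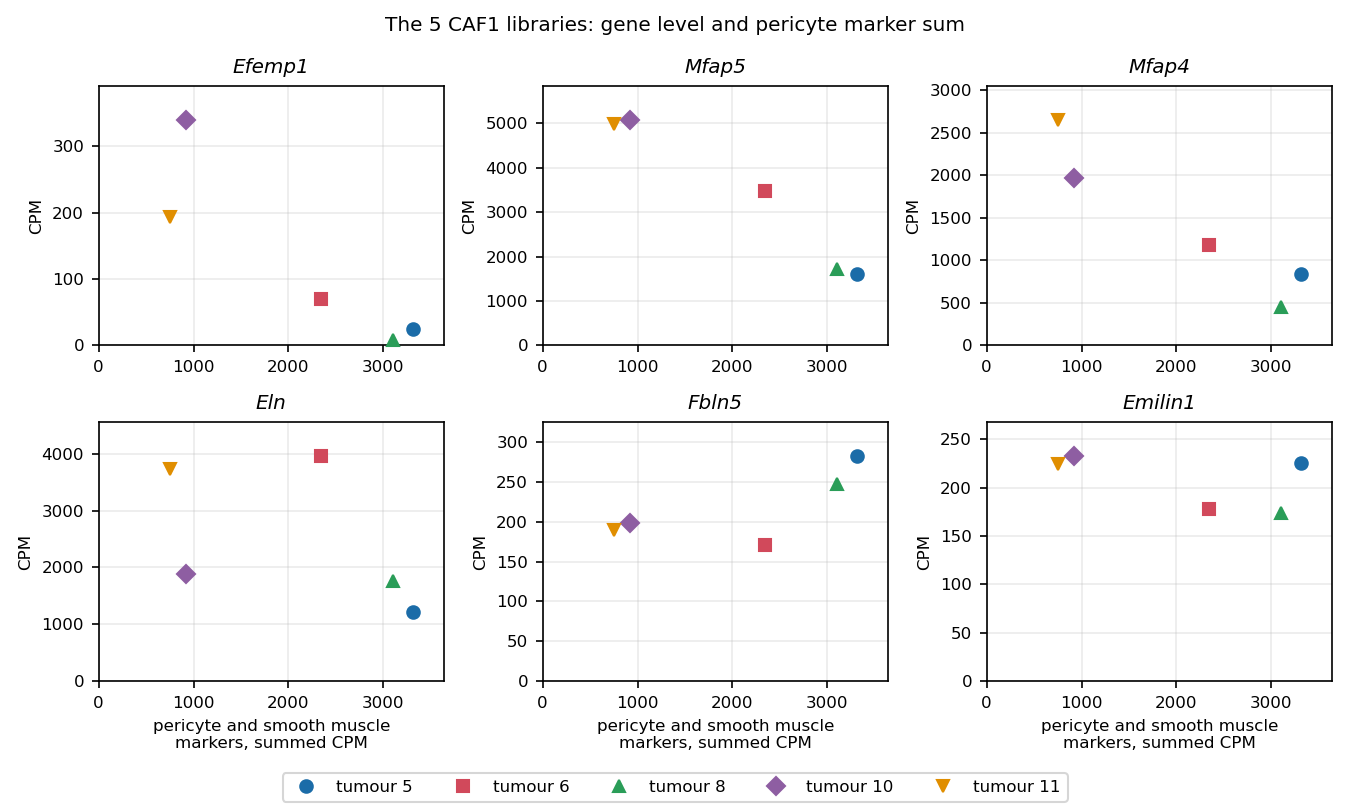
CPM of 6 genes in the 5 CAF1 libraries against the summed CPM of 11 pericyte and smooth muscle markers, both axes linear from 0. The libraries of tumours 10 and 11, with sums of 918 and 749 CPM, hold the most Efemp1, Mfap5 and Mfap4. Fbln5 is highest in those of tumours 5 and 8, at 283 and 247 CPM, and Emilin1 shows neither order.

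Per kilobase of exon, the make-up of the set differed between populations. In CAF1, Mfap5 averaged 939.9, Mfap4 739, Eln 310.3, Fbln2 184, Fbln1 139.5 and Efemp2 117 CPM per kb, and Efemp1, Fbn1, Emilin1 and Fbln5 lay between 31.5 and 68.6. In CAF2, Mfap5 averaged 2049, Efemp1 1113, Mfap4 482, Fbln2 291 and Eln 210.1 CPM per kb. Efemp1 thus made up 1.88 ± 1.74% of the summed level per length in CAF1 and 23.8 ± 7.53% in CAF2 (SD, n = 5 libraries), while Mfap4 made up 26.3 ± 6.07% and 9.99 ± 3.64%. In endothelial cells Fbln5 and Fbln2 led, at 30.5 and 30.3 CPM per kb, or 32.2 ± 2.84% and 33.1 ± 7.42% of the sum. Exon lengths are unions over all annotated transcripts, so these levels run low for genes with long rarely used exons.

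**Figure D4:**
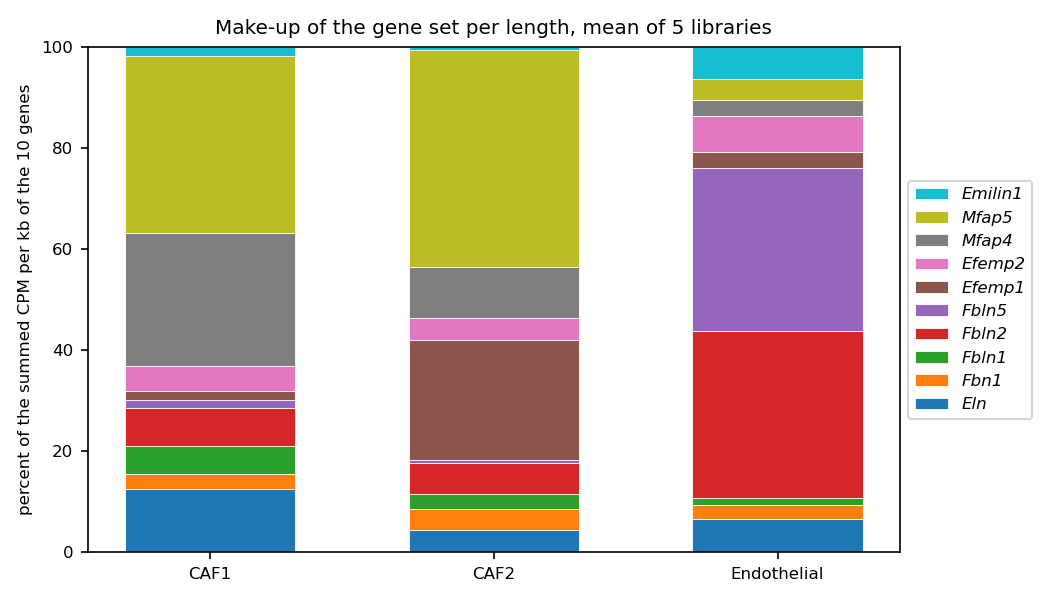
Share of each gene in the summed CPM per kb of the 10 genes, in percent, as the mean of 5 libraries per population. Mfap5 is the largest part in CAF1 and CAF2, Efemp1 is 1.88% in CAF1 and 23.8% in CAF2, and Fbln2 and Fbln5 make up most of the endothelial sum.

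Against endothelial cells, 9 of the 10 genes were higher in CAF1 and 9 in CAF2, all but Fbln5. For CAF1 edgeR called 18.8% of the 13610 genes tested higher and 15.9% lower (34.7% either way), and for CAF2 22.3% higher and 23.7% lower (46% either way). Median log2 fold changes were 5.08 and 5.91 over the 10 genes, against 0.00 and -0.05 over all genes. Fbln2 averaged 1169 ± 322 CPM in CAF1, 1851 ± 290.2 CPM in CAF2 and 193 ± 31.1 CPM in endothelial cells (SD, n = 5), a log2 fold change of 3.18 ± 0.50 for CAF1 (edgeR adjusted p = 7.11e-06). For Fbln5 the log2 fold change was 0.54 ± 0.49 for CAF1 and 0.41 ± 0.49 for CAF2 over endothelial cells (adjusted p = 0.437 and 0.522), and CAF1 was the higher in 2 of 5 tumours by CPM. With the fit restricted to CAF1 and endothelial libraries, Fbln5 passed as higher in CAF1 (log2 0.57, adjusted p = 0.0363). TMM factors averaged 1.06 in CAF1 and 1.45 in endothelial libraries, so fitted fold changes lie above the ratio of CPM.

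Fibroblast markers in the endothelial gate give a scale beside which the low levels are listed. The source of that marker RNA was not tested. The CAF level used is the mean of CAF1 and CAF2, which lie far apart for Efemp1. The fibroblast marker sum of an endothelial library was 0.143% to 1.73% of the mean CAF sum of its tumour, with the 2 highest values in tumours 8 (1.73%) and 5 (1.70%). Fbln5 in endothelial cells was 99.0 ± 22.3% of the CAF level (SD, n = 5 tumours), Emilin1 15.5 ± 5.15% and Fbln2 12.9 ± 2.71%. Efemp2 was at 5.47 ± 6.85%, Eln at 2.62 ± 1.87% and Fbn1 at 2.54 ± 2.74%. Each of these 6 genes exceeded the marker percentage of the same tumour in 5 of 5 tumours. Fbln1, at 1.42 ± 2.20%, and Efemp1, at 0.486 ± 0.108%, exceeded it in 3 of 5 tumours. Mfap5 at 0.322 ± 0.242% exceeded it in 1 and Mfap4 at 0.474 ± 0.472% in 2 of 5 tumours. Eln, Fbn1, Fbln1, Fbln5, Efemp2 and Mfap5 were each highest in the library of tumour 8. Endothelial markers summed to 2726 CPM in that library, the lowest of the group, and to 5512 to 6300 CPM in the other endothelial libraries. Pericyte and smooth muscle markers summed to 2598 CPM in that library and 867 to 2153 CPM in the other endothelial libraries. They form a separate list, but each also exceeded 3 counts in at least 1 library of each CAF group. Their part was not tested.

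**Figure D5:**
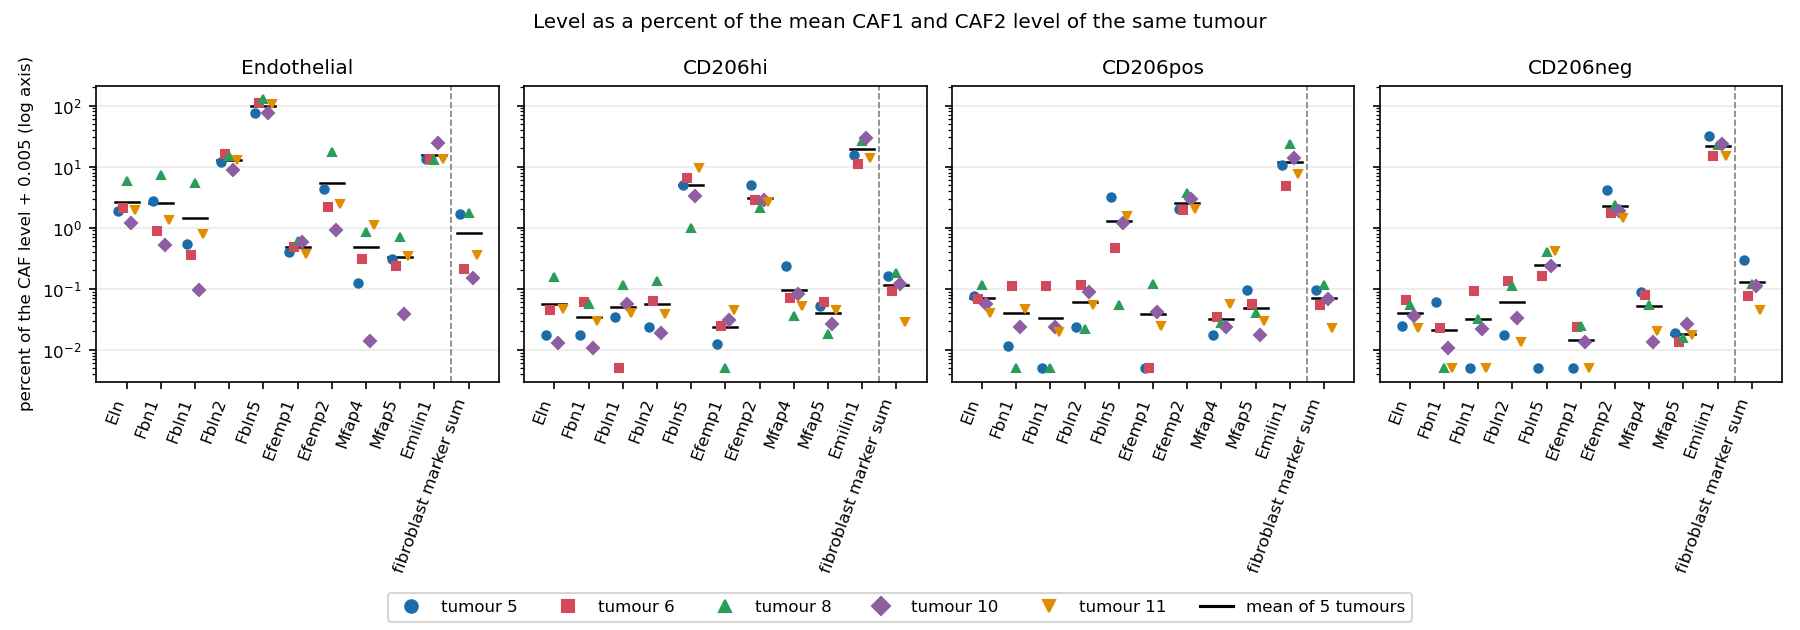
Level in each population as a percent of the mean CAF1 and CAF2 level of the same tumour, plus 0.005, on a log axis; points are tumours, bars are means, and the last column is the sum of 7 fibroblast markers. In every tumour, Fbln5, Emilin1, Fbln2, Efemp2, Eln and Fbn1 in endothelial cells, Emilin1 and Efemp2 in each macrophage group, and Fbln5 in CD206hi lie above the marker sum.

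Against macrophages, all 10 genes were higher in fibroblasts, taken as the mean of CAF1 and CAF2, where 37.3% of genes were called higher and 30.8% lower (68.1% either way). The smallest difference was that of Emilin1, with a log2 fold change of 2.22 ± 0.19 (edgeR adjusted p = 8.12e-12), and the next that of Efemp2, with 4.95 ± 0.29 (1.75e-15). For the genes near the detection limit in macrophages the fitted folds depend on the prior count: Fbn1, Fbln1, Fbln2, Efemp1 and Mfap4 had means below 1 CPM in each macrophage group. Of these, Fbn1, Fbln1, Efemp1 and Mfap4 did not pass the low-count filter in the fit of macrophages alone. They entered the fit of all libraries through groups where they are high, so their calls were not independent of the filter. Endothelial cells were higher than macrophages in 8 of the 10 genes, where 36.5% of genes were called higher (61.3% either way). The limit set by the filter holds for this count too. For Fbln1, Mfap4 and Mfap5, with endothelial means of 6.49, 6.18 and 16.6 CPM, the library ranges overlapped those of macrophages. Mfap4 was higher in 4 of 5 tumours. Fbln2 had a log2 fold change of 7.16 ± 0.40 (adjusted p = 1.17e-15) and Fbln5 of 5.59 ± 0.41 (6.34e-13).

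Emilin1 had the highest mean of the 10 genes by CPM in each macrophage group. It held 28.5, 15.5, 39.6, 52.5 and 22.3 CPM in CD206hi of tumours 5, 6, 8, 10 and 11, 19.5, 6.67, 34.9, 24.7 and 12.2 CPM in CD206pos, and 57.9, 20.9, 34.1, 41.8 and 23.9 CPM in CD206neg. Endothelial libraries held 18.5 to 43.6 CPM, within the macrophage range. Emilin1 was 19.3 ± 8.18%, 12.1 ± 7.12% and 21.6 ± 6.86% of the CAF level in the CD206hi, CD206pos and CD206neg groups, where fibroblast markers were 0.112 ± 0.0607%, 0.0668 ± 0.0368% and 0.124 ± 0.0967%. It was called lower in endothelial cells than in macrophages (log2 -0.84 ± 0.25, adjusted p = 0.00473, where 24.7% of genes were called lower), but not when libraries were scaled by their totals alone (-0.14, 0.659). By CPM it was higher in endothelial cells than in the macrophage mean in 3 of 5 tumours. CD206pos was lower than CD206neg (log2 -1.08 ± 0.31, edgeR adjusted p = 0.0245), in 4 of 5 tumours, where 5.85% of genes were called lower. That call was lost on library totals alone (0.222) and without the CD206pos library of tumour 11 (0.0574) or the CD206neg library of tumour 5 (0.054) or 10 (0.0628). Without all libraries of tumour 5, 10 or 11 the adjusted p was 0.0942, 0.0656 or 0.0971.

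Fbln5 parted the macrophage groups. CD206hi libraries held 14.6, 11.3, 2.37, 6.44 and 17.6 CPM in tumours 5, 6, 8, 10 and 11, CD206pos libraries 9.44, 0.795, 0.116, 2.29 and 2.87 CPM, and CD206neg libraries 0, 0.265, 0.921, 0.445 and 0.753 CPM. CD206hi lay above CD206neg in every library and above CD206pos in each tumour, with CD206hi and CD206pos overlapping between tumours. CD206hi was higher than CD206neg, with a log2 fold change of 4.33 ± 0.91 (edgeR adjusted p = 0.00415), where 6.14% of 11052 genes were called higher. CD206hi over CD206pos (1.86 ± 0.76, adjusted p = 0.603) and CD206pos over CD206neg (2.47 ± 0.90, 0.0725) did not pass; the CD206pos over CD206neg difference passed in DESeq2 (0.0222), with all 30 libraries in the fit (0.0186), on library totals alone (0.0346) and without the CD206pos library of tumour 8. Fbln5 in CD206hi was 5.07 ± 3.21% of the CAF level and 5.31 ± 2.99% of the endothelial level, while fibroblast markers in CD206hi were 0.112% of the CAF sum and endothelial markers 0.0955 ± 0.0388% of the endothelial sum.

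Efemp2 was the third gene seen in macrophages, at 18.4 ± 6.54, 15.8 ± 6.72 and 13.8 ± 6.09 CPM in CD206hi, CD206pos and CD206neg (SD, n = 5), and at 31.7 ± 39.9 CPM in endothelial cells, where tumour 8 held 102 CPM. The endothelial over macrophage log2 fold change was 0.19 ± 0.33 (edgeR adjusted p = 0.652). It was -0.84 without the endothelial library of tumour 8 (0.00727) and 1.00 on library totals alone (0.0135). It thus passed in opposite directions in these settings. Efemp2 shares 173 exon bases with Mus81, a nuclease gene on the opposite strand at 7.07 to 9.27 CPM in the macrophage groups. The strand setting of the counting is not given in the sources used here, so reads of the 2 genes may not be told apart there. Mfap4 likewise shares 89 exon bases with Mapk7. The genes Fbn1, Fbln1, Efemp1 and Mfap4, were too low to be tested between macrophage groups. Of the 6 tested, none passed between CD206hi and CD206pos, where edgeR called 0.19% of genes (0.00905% higher, 0.181% lower). Eln, Fbln2, Efemp2 and Mfap5 did not pass in the remaining pairs, where it called 10% for CD206hi against CD206neg (3.9% lower) and 14.7% for CD206pos against CD206neg (8.85% higher).

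Other genes of elastic fibre biology were read from 5 lists of 38 genes. Between CAF1 and CAF2, 31 were tested: CAF1 was higher in 5 and lower in 7, beside 10.9% and 8.59% of all genes tested. Among microfibril and latent TGF-beta binding genes 2 of 14 were higher and 4 lower in CAF1, against the same shares of all genes (median log2 fold change -0.08). Ltbp1, which holds latent TGF-beta in the matrix, had means of 22.1 CPM in CAF1 and 149 CPM in CAF2 (log2 -2.55 ± 0.35, edgeR adjusted p = 0.000271). Adamtsl4, an ADAMTS-like protein that binds fibrillin-1, stood at 6.40 and 83.7 CPM in CAF1 and CAF2 (-3.59 ± 0.29, 1.06e-05), and Adamtsl2 at 18.0 and 3.26 CPM (2.63 ± 0.52, 0.00339). Emilin2, the relative of Emilin1, went the other way from it: 39.5 CPM in CAF1 and 425 CPM in CAF2 (-3.28 ± 0.26, 1.02e-05).

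Of the 5 elastin crosslinkers, the lysyl oxidase Loxl3 was higher in CAF1 (log2 1.07 ± 0.15, edgeR adjusted p = 0.00029) and Loxl4 lower (-1.29 ± 0.35, 0.0225), while Lox, Loxl1 and Loxl2 did not pass. Each of the 5 was higher in CAF1 and in CAF2 than in endothelial cells, where 18.8% and 22.3% of all genes were. Lox averaged 601 CPM in CAF1, 766 CPM in CAF2 and 3.42 CPM in endothelial cells. Of 6 elastin-degrading proteases tested, 2 were higher and 1 lower in CAF1 (10.9% and 8.59% of all genes), with Mmp14, a membrane-bound metalloprotease, at CAF1 and CAF2 means of 2157 and 1074 CPM (log2 1.22 ± 0.32, adjusted p = 0.0166). Macrophages held others of that list: Ctss, cathepsin S, averaged 4.14 CPM in fibroblasts and 6502 CPM in macrophages, and Mmp12, macrophage elastase, 1.22 and 601 CPM (edgeR adjusted p = 1.33e-16 and 1.92e-11). Mmp12 was lower in CD206hi, at 297 CPM, and in CD206pos, at 191 CPM, than in CD206neg, at 1314 CPM. The log2 fold changes were -2.34 ± 0.72 and -2.79 ± 0.74 (edgeR adjusted p = 0.047 and 0.0162), where 3.9% and 5.85% of genes were called lower. Glb1, Neu1 and Ctsa, of the elastin receptor complex and of lysosomes, were each lower in fibroblasts and in endothelial cells than in macrophages, as were 30.8% and 24.7% of all genes.

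Other genes of these families were measured in the endothelial gate. Mmrn2, an EMILIN family member of endothelial matrix, had means of 0.0688 CPM in CAF1, 0.136 CPM in CAF2 and 433 CPM in endothelial cells. Ltbp4, which takes part in elastin assembly with fibulin-5, averaged 181 CPM in CAF1, 377 CPM in CAF2 and 289.6 CPM in endothelial cells, and was not called between either CAF group and endothelial cells. It was higher in endothelial cells than in macrophages, at 0.519 CPM (log2 8.50 ± 0.39, edgeR adjusted p = 1.67e-17). Of the 33 list genes tested, 21 were higher and 9 lower in endothelial cells than in macrophages, where 36.5% and 24.7% of all genes were.

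Genes outside the lists were ranked by their likeness to Eln and Mfap5. The 5 genes nearest to Eln among 10189, by the mean absolute difference of centred log2(CPM + 1) over 30 libraries, were Col8a1 (0.629), Bgn (0.658), Aebp1 (0.685), Col5a1 (0.691) and Ccdc80 (0.719). Col8a1 averaged 1532 CPM in CAF1 and 744 CPM in CAF2, and Bgn, the proteoglycan biglycan, 5233 and 2614 CPM. The CAF means of Aebp1 (872 and 783 CPM), Col5a1 (2679 and 2487 CPM) and Ccdc80 (1436 and 1369 CPM) lay closer together. Nearest to Mfap5 were Dcn (0.515), Lum (0.605), Serpina3n (0.659), Tnfaip6 (0.746) and Cilp (0.746). Dcn, which encodes decorin, averaged 5958 CPM in CAF1 and 15135 CPM in CAF2. The means of Lum, Serpina3n and Tnfaip6 were also higher in CAF2, but Cilp averaged 2172 CPM in CAF1 and 1137 CPM in CAF2. All 30 libraries enter this measure, so it is set mainly by the gap between fibroblasts and the other lineages.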

How the data were processed

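RNA-seq counts of 30 libraries were used. The authors deposited unnormalised read counts, one integer for each Entrez gene and library; per the submitters' processing notes, Trimmomatic 0.36, HISAT2 2.0.4, SAMtools 1.3.1, DESeq2 1.26 and mouse build mm10 were used. How reads were counted is not given in the sources used here, and a second, normalised table went unused. Each gene has at least 72 counts in all. Symbols, coordinates and promoters came from RefSeq (GRCm38.p6), exon lengths from GENCODE M21.

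After a filterByExpr filter and TMM scaling, genes were tested by the quasi-likelihood F test of edgeR 4.0.16 in R 4.3.3, called at 0.05 after Benjamini-Hochberg adjustment over every gene in the fit: 12149 in the fibroblast fit (10 libraries), 13610 in the fit of all libraries and 11052 in the macrophage fit (15 libraries). SE is the log2 fold change over the root of F. The 6 populations of a tumour share an animal, so tumour pairs them (correlation of deviations 0.0205 to 0.381, 0.0214 to 0.574 and 0.111 to 0.649 in the 3 fits); the main fits carry no block. Alternatives included a tumour block, DESeq2 1.42.0, other scalings and filters, and libraries left out; scaling by library totals alone was added after the data were seen. Tests were tested on simulated data.

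The members and lists were chosen with earlier results of these data known. Named are all 10 genes, up to 3 called genes per list, direction and comparison with at least 10 CPM in the higher group, and the 5 genes nearest to Eln and Mfap5; for brevity not every gene eligible by the list rule is printed.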

Additional observations from a re-analysis of the deposited data

Results flagged for a closer look

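In 7 of 59 pairs of a gene and a population, 1 library lay far from the other 4 by Dixon's ratio, the gap to the nearest library over the range of the group. For normally distributed values chance gives such a library in about 1 group in 20. Whether CPM are so distributed was not checked, and all 7 libraries were the highest of their group. No excess over chance is therefore read from this count. In CAF1, Efemp2 of tumour 10 held 742 CPM and the others 347 to 387 CPM (ratio 0.899). In endothelial cells the library of tumour 8 was the highest for Efemp2, with 102 CPM against 7.50 to 23.7 CPM (ratio 0.829), and for Fbln1, with 20.4 CPM against 0.577 to 5.57 CPM (ratio 0.749). That library also held the highest fibroblast marker sum of the endothelial group, 653 CPM, and the highest pericyte sum, 2598 CPM; their part was not tested. Emilin1 was highest in the endothelial library of tumour 10, with 43.6 CPM against 18.5 to 24.6 CPM (ratio 0.757), where the fibroblast marker sum was the lowest of the group, 51.8 CPM. The other 3 lie near the detection limit: Fbln1 in CD206pos of tumour 6, at 0.636 CPM (ratio 0.810), Fbln1 in CD206neg of tumour 6, at 0.530 CPM (ratio 0.790), and Mfap4 in CD206pos of tumour 11, at 0.849 CPM (ratio 0.713).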

How the results depend on the processing

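Of 1755 recomputed fold changes of the 10 genes, 1699 kept their direction and side of the threshold. Library totals alone moved the median of all genes to 0.89 for endothelial cells over macrophages (0.17 with TMM), to 0.41 for fibroblasts over macrophages (0.10), to -0.43 and -0.44 for CAF1 and CAF2 over endothelial cells (0.00 and -0.05), and to 0.16 and 0.19 for CD206hi and CD206pos over CD206neg (0.02 each). In that setting 4 genes were lower in CAF1, 0 lower in endothelial cells than in macrophages, 1 higher and 0 lower in CD206pos than in CD206neg, and 729 and 920 genes were called for CD206hi and CD206pos against CD206neg. With all 30 libraries in the fit, 1 gene was lower in CAF1, 1 was higher in CD206pos than in CD206neg, and 36 genes in all were called for CD206hi against CD206pos. With tumour as a block, 1791, 97 and 2800 genes were called for CD206hi against CD206neg, CD206hi against CD206pos and CD206pos against CD206neg (1110, 21 and 1625 without), and no call among the 10 genes changed. DESeq2 called 83 genes for CD206hi against CD206pos, and 1 of the 10 genes higher in CD206pos than in CD206neg. Without the CD206neg libraries of tumours 6 and 8, 545 and 930 genes were called for CD206hi and CD206pos against CD206neg. The cause of these shifts was not tested.

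Signs turned only for genes that did not pass in the main test, Efemp2 being called after its turn as given above. Fbln1 in CAF1 over CAF2 was -0.011 under the block. Fbln2 turned to 1.37 for CD206hi over CD206neg and to 1.58 for CD206pos over CD206neg without those 2 libraries, and to 0.18 under the block and 0.030 on library totals for the second pair, where Efemp2 turned to -0.059 without those libraries.

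With single libraries or tumours left out, log2 fold changes ran from -0.18 to 0.48 for Fbln1 in CAF1 over CAF2 and from -0.88 to 0.52 for Efemp2 in endothelial cells over macrophages. For CD206hi over CD206neg they ran from -0.63 to 1.11 (Eln) and -1.07 to 0.40 (Fbln2), for CD206hi over CD206pos from -0.99 to 0.16 (Eln), -0.88 to 0.22 (Fbln2) and -0.45 to 0.21 (Mfap5), and for CD206pos over CD206neg from -0.62 to 0.61 (Fbln2) and -0.16 to 0.25 (Efemp2). Genes called ran from 535 to 1164, 0 to 48 and 765 to 2070 in these 3 macrophage pairs. Genes of the set called lower ran from 1 to 2 in endothelial cells against macrophages and from 0 to 1 in CD206pos against CD206neg, where 0 to 1 were higher. Low counts limit what can be said of Fbn1, Fbln1, Efemp1 and Mfap4 in macrophages. No macrophage library held more than 10, 4, 10 and 19 counts of these genes.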
